A study of Danio rerio with 5 samples.

Results

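A set of 182 genes stood above every later time point on the earliest plate of cells sorted from the injured zebrafish heart. UMIs, the molecular barcodes that count captured transcripts, were summed over the wells of each plate that held 500 or more UMIs without ERCC spike-in RNA, and were divided by the plate total to give CPM, the count scaled to a common plate total. The genes were chosen by these measured levels. A gene was taken when it had at least 50 CPM at 1 day post cryo-injury (dpci), and when that level was at least 2.5 times its CPM at 3 dpci and at least 2.5 times its CPM on each of 3 plates from 7 dpci. Ribosomal, proteasome, splicing, collagen, laminin, integrin and potassium channel symbols, a few other symbol families and 11 single genes were left out by name. Of 17997 gene IDs, 2084 reached the level at 1 dpci, 190 of them (9.12%) also met the folds, and 182 remained once 8 were left out by symbol. A symbol in the gene-name table exists for 154 of the 182, and the other 28 are known only by an Ensembl ID. Since the levels chose the genes, every value at 1 dpci set against 3 or 7 dpci is a description, with no test.

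The cells came from ventricles of adult TgBAC(nppa:mCitrine) zebrafish, in which the nppa promoter drives a fluorescent protein in cardiomyocytes that border the injury. All fish were of the TL background and had the tip of the ventricle frozen with a pre-chilled copper probe, and no uninjured heart is among the 5 plates. Viable mCitrine-positive cells were sorted 1 to a well and sequenced by SORT-seq, and the first 2 times are held by a single plate each, while 7 dpci has 3 plates. Several hearts were used for each time, but which of them filled which plate is not given, so that errors over the 7 dpci plates measure only the spread between plates, and the single plates at 1 and 3 dpci have no replicate check.

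In the first days after an injury to the heart, resident and incoming macrophages take up dead cells and break them down in lysosomes, organelles that a proton pump, the vacuolar ATPase, keeps acidic. The same cells rebuild their actin skeleton to move and engulf, make reactive oxygen through an NADPH oxidase, and release cytokines such as tumour necrosis factor. Endocardial and epicardial cells next to the wound turn on genes for clotting, cell adhesion and matrix at the same stage, and zebrafish cardiomyocytes in the border zone later dedifferentiate and divide.

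The well filter kept 319 wells at 1 dpci, 300 wells at 3 dpci, and 190, 247 and 246 wells on plates 1 to 3 of 7 dpci, with a median of 1042 to 2728 UMIs per well. A single UMI stood for 0.676 CPM at 1 dpci, 1.103 CPM at 3 dpci and 1.27 to 3.03 CPM at 7 dpci, so that 3 UMIs, the limit that a count of 0 allows, came to between 2.03 and 9.08 CPM. Spike-in RNA took 30.1% of all UMIs at 1 dpci, 34.6% at 3 dpci and 43.5% to 55.4% at 7 dpci. The 1 and 3 dpci plates shared a sequencing run and the 7 dpci plates were sequenced on other runs, so run and day cannot be told apart for 7 dpci.

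Wells differed in their share of cardiomyocyte transcripts, a score that does not name a cell type. The paper describes the sorted cells as border zone cardiomyocytes. A list of 21 measured cardiomyocyte genes summed to 99568 CPM at 1 dpci, 140150 CPM at 3 dpci, and 194700, 223080 and 209560 CPM at 7 dpci. Wells in which that list made up less than 5% of UMIs numbered 70 at 1 dpci, 47 at 3 dpci, and 13, 12 and 15 at 7 dpci. At 1 dpci they were split by marker UMIs, with the 182 genes taken out of the marker lists. In 12 wells macrophage markers had 10 or more UMIs and more than endothelial markers. Of the rest, 23 wells had 10 or more UMIs of endothelial and epicardial markers together, and 35 wells had fewer than 10 of either kind. Epicardial and neutrophil markers were not weighed against macrophage markers. In the 12 wells these lists summed to 3633, 2938 and 5924 CPM in that order. This left 249 wells with 5% or more cardiomyocyte UMIs, called cardiomyocyte wells here. On the whole 1 dpci plate krt8 (1299 CPM), krt18a.1 (492 CPM) and a copy of FN1 (469 CPM) led the epicardial or fibroblast list. TCF21 and TBX18 of that list stood at 10.8 and 3.38 CPM, so the group name rests mostly on other genes. The 12 macrophage-marker wells held 42.5 CPM of nppa, the gene of the reporter, and the 249 cardiomyocyte wells 1430 CPM. The 5% limit was set after the wells had been seen, and 13 wells at 1 dpci lay between 4% and 6%.

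Together the 182 genes took 3.82% of all UMIs at 1 dpci, 1.06% at 3 dpci, and 0.358%, 0.191% and 0.308% at 7 dpci. The mean over the 7 dpci plates was 0.286 ± 0.0858% (SD, n = 3). Levels ran from 50.02 to 2461 CPM at 1 dpci with a median of 110 CPM, against a median of 26.5 CPM at 3 dpci and 6.92 CPM for the 7 dpci mean. For 160 of the genes the highest of the other plates was 3 dpci. The exact 95% interval of the ratio of 1 to 3 dpci, which covers counting error only, lay above 2.5 for 87 genes. It lay above 1 for all 182, which the limits of 50 CPM and 2.5-fold had fixed in advance. A ratio of 5 or more to every other plate was held by 42 genes and a ratio of 10 or more by 10, and 14 genes had no UMI on any 7 dpci plate. Beside the limit lay ARPC1B, CERS2 and prdx6 just inside, at ratios of 2.501, 2.506 and 2.507, and zgc:174904, ENSDARG00000005620 and si:dkey-7j14.6 just outside at 2.497, 2.496 and 2.490. A copy of MFAP4 met the folds and missed the level at 49.5 CPM.

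**Figure D1:**
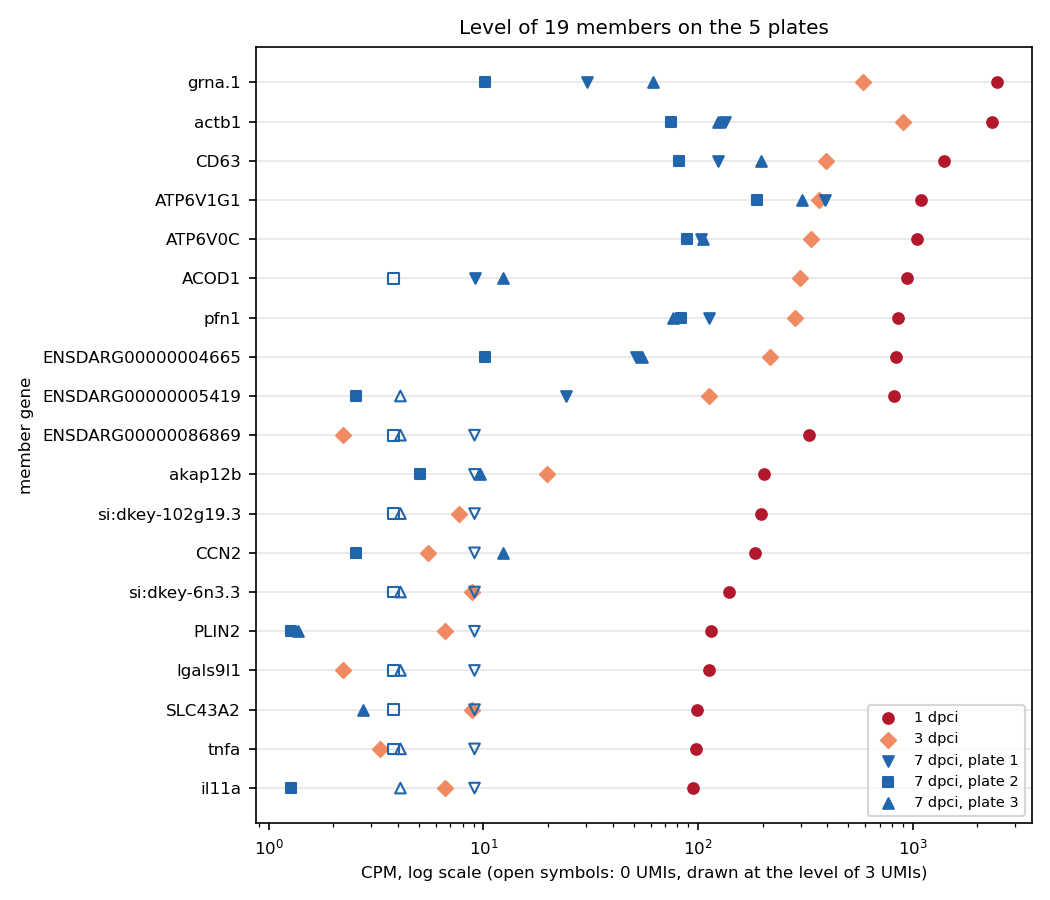
CPM on each plate (log axis) for 19 of the 182 genes, drawn from the 10 with the highest 1 dpci level and the 10 with the highest ratio to any other plate, with points for 1 dpci, 3 dpci and the 3 plates of 7 dpci. Open symbols mark 0 UMIs and are drawn at the level of 3 UMIs. grna.1 stood highest at 1 dpci with 2461 CPM, and tnfa and lgals9l1 had no UMI on any 7 dpci plate.

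Genes of the lysosome included the one with the highest level at 1 dpci. The set held 6 of the 16 genes at 50 CPM or more on a list for vesicles, lysosome and autophagy. The 9.12% of all such genes that met the folds stands beside it, and nothing is read from the pair, since the same levels chose the genes. The same holds for every list and family below. Among families drawn up after the values had been seen it held 10 of 13 lysosomal enzymes and lipid-handling proteins, 6 of 13 subunits of the vacuolar ATPase, 3 of 6 cathepsins and 2 of 3 granulins. The highest of all was grna.1 (ENSDARG00000089362), which encodes a granulin, a secreted growth factor that also acts in lysosomes. It stood at 2461 CPM at 1 dpci, 584 CPM at 3 dpci, and 30.3, 10.1 and 61.6 CPM at 7 dpci. The related grna had 241 CPM at 1 dpci, 65.1 CPM at 3 dpci, and 24.2, 6.33 and 0 CPM at 7 dpci. In both the level was lower at each later time.

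CD63 (ENSDARG00000025147), a membrane protein of late endosomes, had 1396 CPM at 1 dpci, 392 CPM at 3 dpci, and 124, 81.3 and 196 CPM at 7 dpci. LGMN, a lysosomal protease, had 740, 234, 63.6, 11.4 and 106 CPM in the same order of plates. PSAP, the precursor of proteins that help degrade sphingolipids, had 656, 246, 182, 130 and 103 CPM. All of these were above every 7 dpci plate at 3 dpci as well. That order also held for 2835 (54.6%) of the 5189 genes tested below in 7 against 3 dpci. Nothing is read from it in any gene. The cathepsins CTSD and CTSZ, acid proteases of the lysosome, reached 543 and 349 CPM at 1 dpci and lay at or below 48.5 and 17.8 CPM on every 7 dpci plate.

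Of the proton pump, ATP6V0C encodes the ring that carries protons through the membrane and ATP6V1G1 a stalk subunit. ATP6V0C had 1044 CPM at 1 dpci, 336 CPM at 3 dpci, and 103, 88.8 and 105 CPM at 7 dpci. ATP6V1G1 had 1098 CPM at 1 dpci, 365 CPM at 3 dpci, and 388, 188 and 305 CPM at 7 dpci, so that its 3 dpci value lay within the spread of the 7 dpci plates. It had a UMI in 262 of the 319 wells at 1 dpci, where grna.1 had one in 188.

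Cytokines and their signalling genes lay between 74.2 and 942 CPM at 1 dpci. On their list 6 of 17 genes belonged to the set, namely ACOD1, tnfb, nfkb2, tnfa, il11a and MMP9. ACOD1 (ENSDARG00000069844), which makes the antimicrobial metabolite itaconate in activated macrophages, had 942 CPM at 1 dpci, 299 CPM at 3 dpci, and 9.08, 0 and 12.3 CPM at 7 dpci. The zebrafish genes for tumour necrosis factor are tnfa and tnfb. tnfa had 97.6 CPM at 1 dpci, 3.31 CPM at 3 dpci and no UMI at 7 dpci. tnfb had 153 CPM at 1 dpci, 18.8 CPM at 3 dpci, and 0, 0 and 1.37 CPM at 7 dpci. Both were thus near or at the floor of detection by 7 dpci. il11a, a cytokine of the interleukin-6 family, had 94.2 CPM at 1 dpci, 6.62 CPM at 3 dpci, and 0, 1.27 and 0 CPM at 7 dpci. nfkb2, a subunit of the transcription factor NF-kB, had 102 CPM at 1 dpci, 18.7 CPM at 3 dpci, and 30.3, 0 and 5.47 CPM at 7 dpci, 1 plate being above 3 dpci.

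The oxidase that makes superoxide in phagocytes was represented by its membrane subunits cyba and cybb, among others. These had 140 and 92.1 CPM at 1 dpci, 39.7 and 25.4 CPM at 3 dpci, and at most 11.4 and 17.8 CPM on any 7 dpci plate. From the macrophage list came CORO1A, an actin-binding protein of leukocytes, lgals9l1, a galectin, and tnfa, as 3 of 12 genes at the level. lgals9l1 had 112 CPM at 1 dpci, 2.21 CPM at 3 dpci and no UMI at 7 dpci. The protease MMP9, which degrades denatured collagen, had 74.2 CPM at 1 dpci, 12.13 CPM at 3 dpci, and 0, 0 and 8.20 CPM at 7 dpci. It was the only one of 4 neutrophil-list genes in the set, but mmp13a, another of the 4, had met the levels and was left out by name.

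Wound and matrix genes gave 6 of 14 on their list, among them f3b, CCN2, adam8a, anxa5b and MMP9. CCN2 (ENSDARG00000042934), a secreted matricellular protein, had 185 CPM at 1 dpci, 5.51 CPM at 3 dpci, and 0, 2.53 and 12.3 CPM at 7 dpci. f3b, a tissue factor that starts clotting, had 207 CPM at 1 dpci, 72.8 CPM at 3 dpci, and 6.05, 5.07 and 10.9 CPM at 7 dpci. f3b thus had 3 dpci above every 7 dpci plate, and CCN2 did not. akap12b, a scaffold protein that binds protein kinase A, had 203 CPM at 1 dpci, 19.9 CPM at 3 dpci, and 0, 5.07 and 9.58 CPM at 7 dpci. TAGLN (ENSDARG00000033466) and FLI1, a transcription factor of endothelium, were the members from the smooth muscle list (1 of 1) and the endothelial list (1 of 6). TAGLN was placed on its list by symbol alone. A second gene ID with that symbol (ENSDARG00000045408) had 43.9 CPM at 1 dpci, 95.98 CPM at 3 dpci, and 417, 55.8 and 128 CPM at 7 dpci.

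The cytoskeleton added actb1, pfn1, ARPC1B, ARPC3, ARPC5 and MYH9, 6 of the 31 genes at the level on the list for actin and adhesion. actb1 (ENSDARG00000037746), a cytoplasmic beta-actin, had 2350 CPM at 1 dpci, 905 CPM at 3 dpci, and 133, 74.8 and 124 CPM at 7 dpci. pfn1, profilin, which supplies actin monomers to growing filaments, had 857 CPM at 1 dpci, 284 CPM at 3 dpci, and 112, 83.6 and 76.6 CPM at 7 dpci. In both the 3 dpci plate was above all 7 dpci plates. The ARPC genes encode subunits of the Arp2/3 complex, which branches actin filaments, and 3 of its 9 genes at the level were in the set.

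Counts for lists of stress genes and other lists stand beside the 9.12% of all genes at 50 CPM or more that met the folds. Nothing is read from them. HMOX1, which degrades haem, was the single member among 12 genes for iron, redox and hypoxia, with 526 CPM at 1 dpci, 190 CPM at 3 dpci, and 39.4, 0 and 60.4 CPM at 7 dpci. FOSB, a subunit of the AP-1 transcription factor, was the single member among 32 immediate early and stress transcription factors, with 370 CPM at 1 dpci, 139 CPM at 3 dpci, and 94.1, 3.80 and 9.57 CPM at 7 dpci. The rule had left out ATF3, fosab, jun and egr1 by name, of which ATF3 had met the levels, so that count is set in part by the rule. The list for the unfolded protein response gave 3 of 8, the chaperones PDIA6 and DNAJB11 of the endoplasmic reticulum and the cystine transporter slc7a11, at 58.2, 70.97 and 106 CPM at 1 dpci. A family for folding and transport in the endoplasmic reticulum and Golgi, drawn up after the values had been seen, gave 9 of 21, among them the chaperone HYOU1 at 94.7 CPM, the retrieval receptor KDELR2 at 50.03 CPM and RPN1, a subunit of the enzyme that attaches sugars to new proteins, at 122 CPM at 1 dpci. No gene came from the lists of heat shock (0 of 23), glycolysis (0 of 16), cardiomyocyte (0 of 15), epicardial or fibroblast (0 of 10) or border zone cardiomyocyte genes (0 of 5). On the epicardial or fibroblast list col1a1a and a copy of FN1 had met the levels and were left out by name, and on the border zone list nppb was left out likewise. TARS1, a tRNA synthetase, and TP53INP1, a p53 target, were lone members of lists of 8 genes each.

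At 1 dpci most UMIs of the set lay in a small number of wells that were low in cardiomyocyte transcripts. The 70 wells under the 5% limit held 37.4% of all UMIs and 84.9% of the UMIs of the set (exact binomial interval 84.6% to 85.2%, counting error only). Without the wells above 3 times the plate median the second share was 34.1%. That took out 11 macrophage-marker, 9 endothelial or epicardial-marker and 20 cardiomyocyte wells. The share of all UMIs is not given for the wells left, so 34.1% is not to be set against 37.4%. The 12 macrophage-marker wells alone held 19.1% of all UMIs and 69.97% of those of the set. In these wells the set took 8.42% to 18.7% of each well's UMIs, with a median of 13.9%. In the 23 endothelial or epicardial-marker wells the range was 1.64% to 7.06%, and in the cardiomyocyte wells 0.240% to 5.65%, so that the macrophage-marker wells did not overlap with either. They were also deep, with a median of 23851 UMIs, and 11 of the 12 were above 3 times the plate median. No doublet caller was run. A sum over a plate cannot tell fewer cells of a type from less RNA per cell, and whether the different numbers and depths of such wells account for the levels of the set was not tested.

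**Figure D2:**
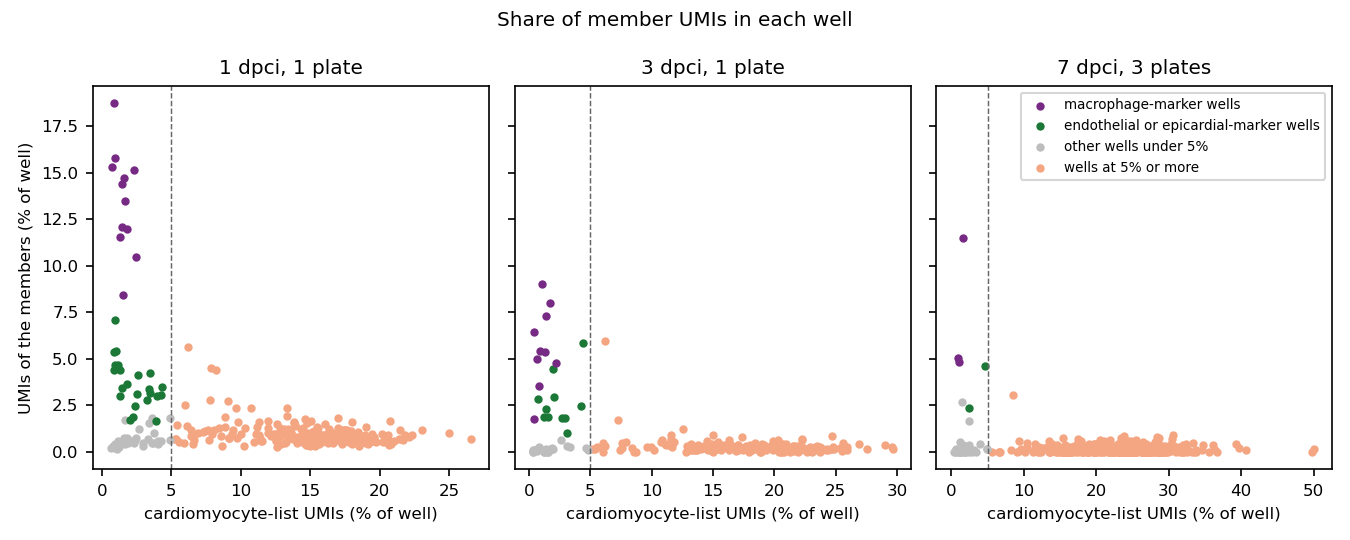
Share of each well's UMIs in 182 genes high at 1 dpci (y axis, percent) against its share in 21 cardiomyocyte genes (x axis, percent), 1 panel each for 1, 3 and 7 dpci and 1 point per well, coloured by well group, with a dashed line at the 5% limit. The macrophage-marker wells at 1 dpci lie at 8.42% to 18.7% on the y axis, above the cardiomyocyte wells, which reach 5.65%.

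Gene by gene the pattern was broad. The median gene of the set had 86.8% of its 1 dpci UMIs in the low wells, against 34.1% for the 1902 other genes at 50 CPM or more. More than 50% lay there for 178 of the 182 genes (97.8%) and for 588 of the others (30.9%). The macrophage-marker wells held the greatest share for 152 genes, the endothelial or epicardial-marker wells for 16, and the cardiomyocyte wells for 14. The 10 fullest wells held 82.1% of a gene's UMIs in the median, against 35.96% for the other genes. These shares come from the plate that the rule used and carry no test.

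grna.1 had 91.5% of its 1 dpci UMIs in the macrophage-marker wells and 6.59% in the cardiomyocyte wells. That was 11805 CPM in macrophage-marker wells, 259 CPM in cardiomyocyte wells and 293 CPM in the 35 low wells without markers. ACOD1 had 87.7%, pfn1 83.3% and HMOX1 87.3% of their UMIs in the same 12 wells. The genes furthest into the low wells were zgc:101699 at 100%, ENSDARG00000075335 at 98.8%, B3GNT5 at 98.5%, SLC43A2 at 97.3% and tnfa at 97.2%. SLC43A2 encodes an amino acid transporter and B3GNT5 a glycosyltransferase.

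A second group had its UMIs in the endothelial or epicardial-marker wells. akap12b had 95.3% there, il11a 82.1%, CCN2 78.4% and FLI1 75.3%. akap12b stood at 1569 CPM in those wells, 10.6 CPM in the macrophage-marker wells and 11.9 CPM in the cardiomyocyte wells.

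The cardiomyocyte wells held the greatest share for another group, among them ATP6V1G1 with 47.6% of its UMIs and f3b with 49.6%. Both lay below the 62.6% of all UMIs that these wells held. By CPM the cardiomyocyte wells stood highest for only 3 genes of the set. TMEM114, a membrane protein, had no UMI outside the cardiomyocyte wells. It stood there at 87.5 CPM at 1 dpci, 17.4 CPM at 3 dpci, and 0, 5.34 and 3.02 CPM at 7 dpci, with a UMI in 58 wells. The other genes least placed in low wells were MMP9 at 19.1%, nap1l4a at 27.9%, tcnbb at 32.9% and f3b at 50.4%.

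**Figure D3:**
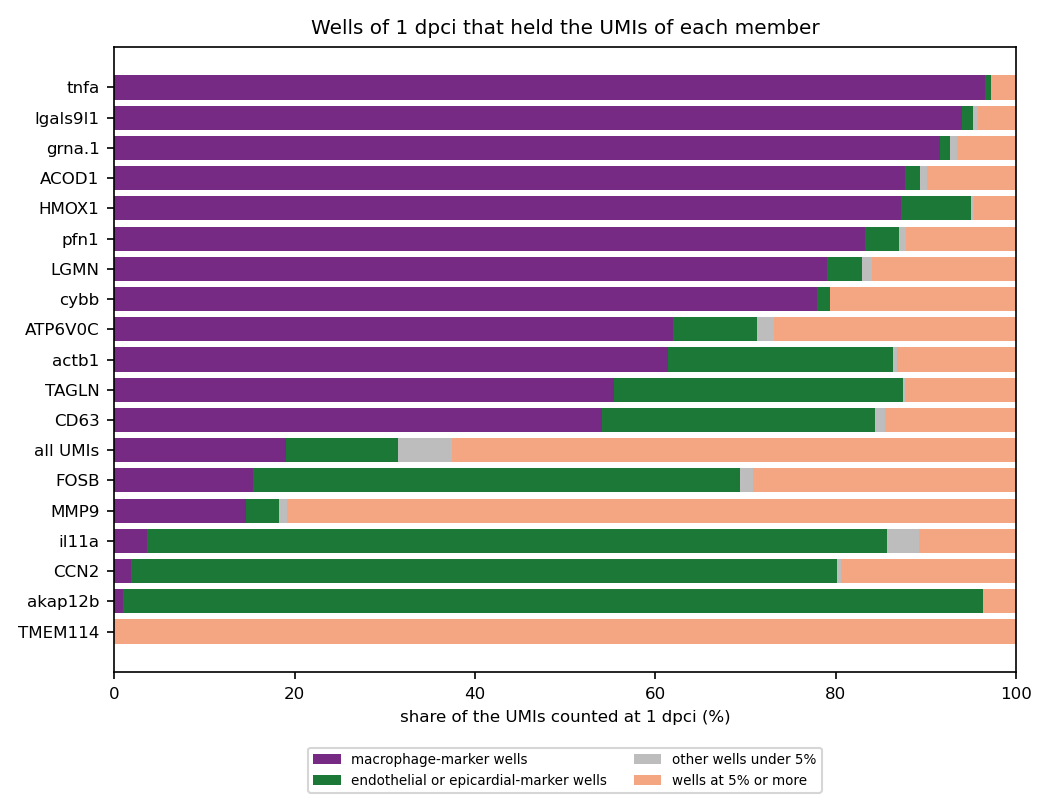
Share of the 1 dpci UMIs (percent, stacked bars from 0 to 100) that came from each well group, for 18 genes of the set and for all UMIs. Macrophage-marker wells give 91.5% of grna.1, endothelial or epicardial-marker wells 95.3% of akap12b and cardiomyocyte wells 100% of TMEM114, while the cardiomyocyte wells hold 62.6% of all UMIs.

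Single wells weighed on some genes. In the median gene the fullest well held 20.4% of the 1 dpci UMIs. tnfa had 110.5 of its 144.5 UMIs (76.4%) in 1 macrophage-marker well. MMP9 had 79.8 of 109.8 UMIs (72.7%), and tcnbb 55.4 of 94.4 (58.7%), in a single well that had 6.23% cardiomyocyte UMIs and so counted as a cardiomyocyte well. In that well the set took 5.65% of UMIs, the highest share of any cardiomyocyte well. CCN2 had 164 of 274 UMIs (60.04%) in 1 endothelial or epicardial-marker well. The levels of these genes on the 1 dpci plate thus rest largely on 1 well each.

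Within well groups the levels at 1 and 3 dpci are given as a description. The rule chose the genes on sums over these same wells, so a higher level at 1 dpci is in part carried over from that choice. The genes set beside them were not chosen in this way. In the macrophage-marker wells, 12 at 1 dpci and 10 at 3 dpci, the median well had 13.9% and 5.38% of its UMIs in the set. Of the 171 genes with 20 or more UMIs there, all 171 were higher at 1 dpci and the median ratio was 2.45, against 1.41 over all 2270 genes with as many UMIs. In cardiomyocyte wells the set took 0.922% of UMIs at 1 dpci, 0.347% at 3 dpci, and 0.199%, 0.172% and 0.163% at 7 dpci. These include the 1 dpci well in which the set took 5.65%. The neutrophil list summed to 1211 CPM in the cardiomyocyte wells at 1 dpci and 75.3 CPM at 3 dpci. On the whole 1 dpci plate that list was led by s100a10b (654 CPM), mmp13a (645 CPM) and NCF1 (289 CPM). Its genes lyz and npsn stood at 1.35 and 0.676 CPM, so the sum does not name neutrophils. In them 122 of 124 genes were higher at 1 than at 3 dpci with a median ratio of 3.12, against 1.04 over 4751 genes. In the endothelial or epicardial-marker wells 60 of 71 were higher, at a median of 1.69 against 1.08. In the low wells with fewer than 10 marker UMIs the set took 0.524% of UMIs at 1 dpci and 0.0918% at 3 dpci. The part of free RNA in these and the cardiomyocyte wells was not tested.

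With cardiomyocyte wells only, the rule took 52 genes, and before exclusions by symbol 56 of 1804 (3.10%), again with nothing read from that share. Of the 52, 29 were among the 182. They included ATP6V1G1 at 836 CPM at 1 dpci, 329 CPM at 3 dpci, and 308, 195 and 269 CPM at 7 dpci, and ATP6V0C, CD63, LGMN, tnfb, MMP9, VAT1, CCN2 and TMEM114. Of the 88.8 UMIs of MMP9 in cardiomyocyte wells at 1 dpci, 79.8 lay in the well at 6.23% cardiomyocyte UMIs described above. Without the macrophage-marker wells the rule took 54 genes, 39 of them shared, and with each well weighed the same it took 78, of which 56 were shared. grna.1, actb1 and ACOD1 were not among the 29.

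To compare wells at 1 depth, each was thinned to 1000 UMIs, which left out 36 wells at 1 dpci, 59 at 3 dpci, and 86, 40 and 44 at 7 dpci. The median well then held 8 UMIs of the set at 1 dpci, 2 at 3 dpci and 1 on each 7 dpci plate. At least 10 such UMIs were found in 38.2% of wells at 1 dpci, 9.54% at 3 dpci, and 3.85%, 0.966% and 0.990% at 7 dpci. At least 50 were found in 18, 9, 1, 0 and 1 wells. actb1 had a UMI in 33.9% of thinned wells at 1 dpci and 18.7% at 3 dpci (61.4% and 28.3% unthinned), and grna.1 in 29.7% and 7.88% (58.9% and 11.3% unthinned). The 1 dpci plate was highest in the median well at equal depth too. This is a description, since the rule chose the genes by their level on that plate.

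The 7 dpci plates against the 3 dpci plate were not compared by the rule, and that comparison was tested over all genes with edgeR's quasi-likelihood test, the p-values being adjusted by Benjamini-Hochberg. Of 5189 genes, 79 (1.52%) passed an adjusted p of 0.05, of which 56 (1.08%) were lower and 23 (0.443%) higher at 7 dpci. All 182 genes were tested and 5 passed, all lower. Only 112 of the 182 would have passed the filter on low values without the 1 dpci plate, and in a fit without it 4 of these passed, TAGLN being the one lost, beside 1.97% of all genes. At an unadjusted p under 0.05 in the edgeR fit of all plates there were 67 of the 182 and 816 of the 5189 genes. Some of the 182 passed the filter only through the 1 dpci plate, so nothing is read from the 67. The median log2 fold change of 7 over 3 dpci was −1.73 in the set and −0.08 over all genes, with 166 of the 182 below 0. In the fit without the 1 dpci plate the median was −1.34 in the 112 genes and −0.04 over all genes, with 102 of the 112 below 0. The rule did not compare 3 with 7 dpci directly. It set an upper limit to both, on 1 plate at 3 dpci and on each of 3 plates at 7 dpci. Both medians and both counts below 0 are thus a description, and nothing is read from them.

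The 5 genes were VAT1, actb1, ACOD1, grna.1 and TAGLN. VAT1 (ENSDARG00000056481), a membrane protein of vesicles, had 6.05, 2.53 and 2.73 CPM at 7 dpci, 2 UMIs on each plate, against 100.4 CPM at 3 dpci. Its log2 fold change was −4.34 ± 0.55 (SE), with an adjusted p of 0.0187 after Benjamini-Hochberg adjustment of edgeR's quasi-likelihood test. actb1 averaged 110.5 ± 31.3 CPM at 7 dpci (SD, n = 3) against 905 CPM at 3 dpci, a log2 fold change of −2.54 ± 0.33 (edgeR adjusted p of 0.0187). In both, every 7 dpci plate lay below the 3 dpci plate, as it did for 54.6% of all genes tested.

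ACOD1 averaged 7.13 ± 6.39 CPM at 7 dpci (SD, n = 3) against 299 CPM at 3 dpci, a log2 fold change of −4.94 ± 0.80 (edgeR adjusted p of 0.0335). grna.1 averaged 34.03 ± 25.95 CPM at 7 dpci against 584 CPM at 3 dpci, a log2 fold change of −3.58 ± 0.62 (edgeR adjusted p of 0.0406). TAGLN (ENSDARG00000033466) averaged 6.80 ± 7.22 CPM at 7 dpci against 114 CPM at 3 dpci, a log2 fold change of −3.88 ± 0.71 (edgeR adjusted p of 0.0464). All 3 plates were below 3 dpci for each of these genes, as they were for 54.6% of all genes tested. TAGLN rested on 5, 2 and 2 UMIs at 7 dpci. Most 3 dpci UMIs of the 5 genes lay in wells under the 5% limit of cardiomyocyte UMIs. The share was 92.31% for VAT1, 72.96% for actb1, 78.55% for ACOD1, 85.59% for grna.1 and 83.51% for TAGLN. The highest log2 fold change in the set was 0.93.

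**Figure D4:**
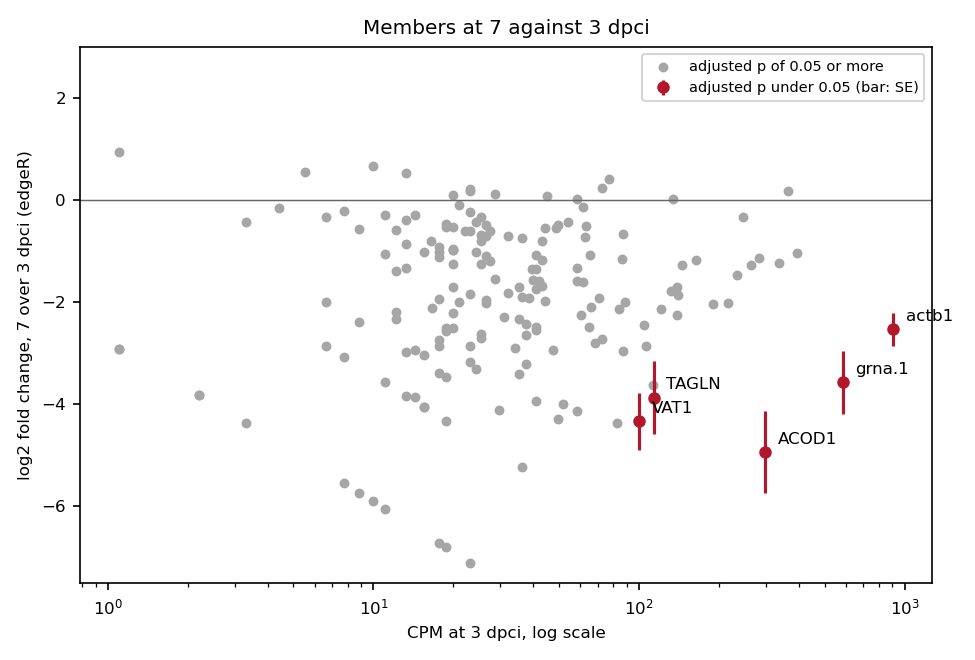
Log2 fold change of 7 over 3 dpci by edgeR (y axis) against CPM at 3 dpci (x axis, log scale), 1 point for each gene of the set that had a UMI at 3 dpci, with the 5 genes that passed an adjusted p of 0.05 labelled and drawn with their standard error. Most points lie below 0, and the 5 genes lie between −4.94 for ACOD1 and −2.54 for actb1. Some points are genes that passed the filter only through the 1 dpci plate, so the share below 0 is a description.

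The calls depended on the plates and wells that entered. Leaving out 7 dpci plate 1, the shallowest, gave 56 genes of the set and 14.3% of all genes tested. Leaving out plate 2 gave 3 (actb1, ACOD1 and grna.1) and 0.510% of all genes, and leaving out plate 3 gave 31 and 3.53%. Without the wells above 3 times the plate median 1 of 89 passed, actb1, beside 3.31% of all genes. In that fit the log2 fold change of grna.1 was −0.85 and that of ACOD1 −2.16, and neither passed. ACOD1 also did not pass with DESeq2. With cardiomyocyte wells only, 1 of 89 passed, ACOD1, beside 0.533% of all genes. It had no UMI in those wells on any 7 dpci plate, against 84.2 CPM at 3 dpci.

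Marker lists of several other cell types also summed to lower levels at 7 dpci. The 21 macrophage genes outside the set summed to 203, 148 and 155 CPM at 7 dpci against 1153 CPM at 3 dpci and 1266 CPM at 1 dpci, and 9 to 15 of the 21 were at 0 on the 7 dpci plates, c1qa, a complement gene of macrophages, on all 3. Of 11 of them tested, 1 passed the test, LCP1, lower at 7 dpci. The 13 endothelial genes summed to 60.5, 48.2 and 5.47 CPM at 7 dpci against 1467 CPM at 3 dpci and 1272 CPM at 1 dpci, with 5 to 11 at 0 at 7 dpci, TIE1, an endothelial receptor, on all 3, and 2 of 6 tested, ramp2 and AQP8, passed as lower. The 19 epicardial or fibroblast genes summed to 1372, 281 and 1127 CPM at 7 dpci against 2060 CPM at 3 dpci and 3433 CPM at 1 dpci, and 7 neutrophil genes to 48.4, 25.3 and 68.7 CPM at 7 dpci against 597 CPM at 3 dpci and 1636 CPM at 1 dpci. In the first list krt8 alone had 882, 60.9 and 497 CPM at 7 dpci against 878 CPM at 3 dpci. TCF21 and TBX18 had at most 1.37 CPM at 7 dpci. In the second s100a10b alone had 30.3, 21.5 and 68.7 CPM at 7 dpci against 445 CPM at 3 dpci. The 6 smooth muscle genes outside the set summed to more at 7 dpci, with 853, 187 and 321 CPM against 137 CPM at 3 dpci. They include a second gene ID with the symbol TAGLN (ENSDARG00000045408), at 417, 55.8 and 128 CPM at 7 dpci against 95.98 CPM at 3 dpci, and how reads were divided between the TAGLN copies is not given in the sources used here. The part of these cell types in the lower levels of the set was not tested.

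Other genes of these lists are set against the 1.08% of all genes that passed as lower and the 0.443% that passed as higher. Outside the set, none of 12 vacuolar ATPase genes and none of 10 lysosomal genes passed, and of 21 cytokine and signalling genes 3 were lower at 7 dpci, the NF-kB inhibitor nfkbiaa, the cytokine signalling inhibitor SOCS3 and the transcription factor CEBPB. Of 38 immediate early and stress transcription factors 6 were lower, namely ATF3, JDP2, FOS, egr1, FOSL2 and CEBPB, and of 30 heat shock genes 2 were lower, the chaperones hsp90aa1.1 and HSPB8. Of 32 actin and adhesion genes outside the set, 2 were lower, the keratins krt18b and krt94. Of 18 cardiomyocyte genes, 2 were higher, the myosin light chain MYL7 and the actin actc1a.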

How the data were processed

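The authors sequenced SORT-seq plates, mapped reads to Zv9 (BWA 0.6.2 in the submitters' processing notes) and deposited, per well, estimated counts of transcripts, that is UMI counts corrected for barcode collisions and therefore not whole. These expected counts were used as the authors deposited them and rounded for edgeR. Of 17997 gene IDs, 14285 (79.4%) matched a symbol. The 182 genes, their lists and the well groups were chosen with earlier results of these data known.

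Wells with 500 or more UMIs outside ERCC were summed per plate. edgeR 4.0.16 (TMM, limma 3.58.1, R 4.3.3) was fitted to all plates on 5189 genes whose CPM averaged 10 or more, after it had been tested on simulated data. DESeq2 1.42.0, other totals, filters and wells, and each plate left out served as alternatives. Python 3.11.15, pandas 2.3.3, SciPy 1.17.1 and matplotlib 3.10.9 did the rest. Named were the 10 genes with the highest level and the 10 with the highest ratio, up to 4 per list, those called, those beside the limits and those with the most and least UMIs in low wells; others were named after their values were seen. A few genes of the set are counted in its totals but not reported here by name. Promoter sequences were not used here.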

Additional observations from a re-analysis of the deposited data

Results flagged for a closer look

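Wells under 500 UMIs entered no comparison, and UMIs of the set were found in them too. In 65 such wells at 1 dpci the set took 2.60% of UMIs, in 84 wells at 3 dpci 0.561%, and in 194, 137 and 138 wells at 7 dpci 0.169%, 0.134% and 0.700%. At 1 dpci that was above the 0.922% of the cardiomyocyte wells and the 0.524% of the low wells with fewer than 10 marker UMIs.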

How the results depend on the processing

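The number of genes taken by the rule was 182. It was 52, 39 and 64 in wells with at least 5%, 2.5% or 10% cardiomyocyte UMIs, and 47 without wells above 3 times the plate median. Limits of 2-fold and 4-fold gave 276 and 61, and levels of 25 and 100 CPM gave 308 and 99. With TMM effective totals it was 126, all among the 182, and with each well weighed the same 78. Without macrophage-marker wells it was 54 and without both marker groups 48 (both chosen after seeing the data). Leaving out each 7 dpci plate gave 182 to 191. The share of the set's UMIs in low wells, 84.9%, became 81.7% and 88.9% at limits of 2.5% and 10%, 85.3% in wells of 1000 or more UMIs and 34.1% without the deepest wells.

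In 7 against 3 dpci, 5 of the set and 79 genes passed (23 higher, 56 lower), the 79 being 1.52% of all genes tested. Library totals gave 11 of the set and 94 genes (11 higher, 83 lower), 1.81% of all genes tested, with a median log2 fold change of −0.60 over all genes. DESeq2 gave 8 and 219 (140 higher, 79 lower), 4.22% of all genes tested. No CPM filter gave 39 and 312, the 312 being 1.74% of 17937 genes tested. Nothing is read from the counts of the set, since its levels chose it. Leaving out a 7 dpci plate gave 3 to 56 of the set and 28 to 766 genes, or 0.510% to 14.3% of all genes tested. Cardiomyocyte wells gave 1 and 24 (0.533% of all genes tested), and wells without the deepest gave 1 and 142 (3.31%). The cause was not tested. All 45 recomputed fold changes of the 5 genes were below 0, and 33 passed. The 5 genes were chosen because they passed as lower, and every setting used the same 3 dpci plate. The 45 are therefore not read as a measure of stability.

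Log2 ratios of 1 dpci to the highest other plate were listed 322 times for 19 genes under the other settings. Of these, 232 moved by less than counting error and 89 kept their direction but moved further. The 232 include every ratio under the other fold and level limits, which change only the choice of genes, so that these ratios could not move. Leaving out a 7 dpci plate could move a ratio only where that plate set the highest other level. The 232 are therefore not read as a measure of stability. pfn1 turned to −0.14 without the deepest wells. No paired analysis was possible because 1 and 3 dpci have a single plate each. A plate's depth limits low genes, since 3 UMIs are 9.08 CPM on 7 dpci plate 1.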
